A study of Mus musculus with 4 samples.

Results

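A set of 32 mouse genes whose human counterparts cause hearing loss was followed in the cochlea after outer hair cells (OHCs) had been removed. The genes were taken from a written list by name, under a rule that uses no measured value: deafness genes known from supporting cells, fibrocytes, neurons or many cell types, plus hair cell genes that do not belong to the core of the hair bundle or to the synapse. The list was nonetheless written with earlier results of these data known. The paper had already named *Pjvk* among the genes lowered on these arrays. All 32 were measured, out of 21937 genes that had a probe well above background on 1 or more of the arrays. The list is not strictly free of bundle genes, since the products of *Ptprq*, *Loxhd1*, *Tprn* and *Rdx* are known from stereocilia or from their base, and the genes are therefore described below by role. RNA of whole cochleae from mice of the B6J strain (C57BL/6J) at 5 weeks of age was measured on Agilent 1-colour arrays, with 1 array of pooled RNA for each of 4 groups and 8 cochleae of 4 females and 4 males given for each pool. The groups were wild-type mice without diphtheria toxin (WT DT-), wild-type mice with it (WT DT+), and OHC-TRECK mice without and with it (OHC-TRECK DT- and OHC-TRECK DT+). The toxin was given at 50 μg/kg body weight 7 days before the cochleae were dissected. OHC-TRECK mice carry a human diphtheria toxin receptor transgene (*Prestin*-*hDTR*) under the promoter of *Slc26a5*, the gene of the OHC motor protein prestin, and come from a single founder line on the C57BL/6J background, so all 4 groups share that background. Wild-type mice lack the human receptor and are the control for the toxin, and OHC-TRECK DT- mice are the control for the transgene.

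Hearing depends on many cell types besides the hair cell. OHCs amplify sound, inner hair cells pass it to neurons of the spiral ganglion, supporting cells hold and seal the epithelium, fibrocytes of the spiral ligament and the stria vascularis recycle potassium, and the extracellular matrix carries the mechanical load. Deafness genes act in all of these places, so a gene linked to the same disorder can be expressed in cells that the toxin spares as well as in those that it removes.

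Signals are given as log2 of the background-subtracted intensity after each array had been divided by its 75th percentile, always in the order WT DT-, WT DT+, OHC-TRECK DT-, OHC-TRECK DT+, and the first 3 are called the control arrays. A level can be compared between arrays for the same probe but not between probes. With 1 array in each group no difference between arrays could be checked against replicates or tested, and precision is limited by how few arrays there are. Apart from the arrays, the paper reports significant downregulation by qRT-PCR of the hearing loss genes it lists, *Pjvk* among them. Repeated spots of a probe had a median SD of 0.060 to 0.071, which covers spot error and not the spread between mice, whereas over all genes the control arrays spanned a median of 0.17. They lay within 1.2-fold of each other for 22 of the 32 genes, and for 68.6% of all genes. Between 62.2% and 70.6% of probes per array were well above background, and 30 of the 32 genes were so on all 4 arrays, the exceptions being *Ptprq* and *Gipc3*. The genes had 51 probes in all, of which 3 (for *Loxhd1* and *Smpx*) were not well above background on any array and were not used. The OHC markers followed the labels: all 9 were lowest on the OHC-TRECK DT+ array, with *Strc* 7.43-fold, *Chrna9* 4.84-fold and *Ocm* 4.71-fold below the lowest control array, while *Slc26a5* was dim on every array (-4.89, -4.47, -5.06 and -6.07) and not well above background on the last. *Ikzf2* and *Lbh* were only 1.01-fold and 1.03-fold below it, less than the SD of repeated spots. Being lowest on this array by any amount held for 31.1% of all genes. The neutrophil and erythroid markers differed between the control arrays themselves, with all 7 and all 6 of them inside the control range on the OHC-TRECK DT+ array.

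For most of the 32 genes, as for most of all genes, the level after OHC loss was close to that of the controls. The OHC-TRECK DT+ signal lay within 1.2-fold of the control mean for 21 of them (65.6%), against 71.7% of all genes, with 5 genes lower and 6 higher than that. The median difference between OHC-TRECK DT+ and the control mean was 0.033 on the log2 scale, and 0.0069 over all genes. *Pjvk* alone was 2-fold or more below each control array, a call made for 0.278% of all genes. None of the 32 genes was 2-fold or more above each control array, where 1.07% of all genes were. At 1.5-fold, *Pjvk* and *Smpx* were below each control array (1.09% of all genes) and *P2rx2* was above each of them (2.54% of all genes). The OHC-TRECK DT+ array was below all 3 control arrays by any amount for 8 genes (25%), against 31.1% of all genes, and above all 3 for 15 (46.9%), against 35% of all genes. Among genes well above background on all 4 arrays, the lower share was 23.3% of these genes and 34.9% of all genes, and the higher share 46.7% and 33.5%. Of the 8 lower genes, 7 belong to the hair cell group described first.

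**Figure D1:**
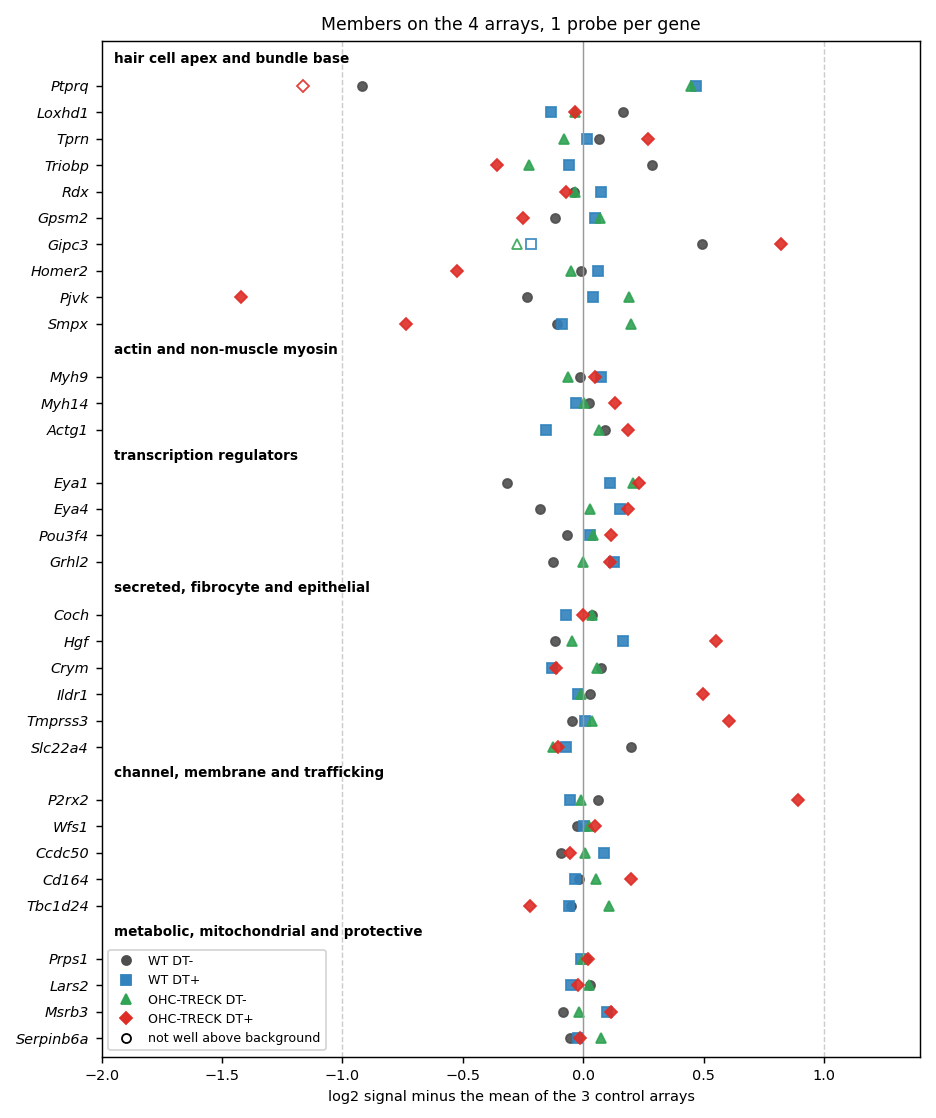
Signal of each of the 32 genes on the 4 arrays, as log2 difference from the mean of the 3 control arrays (x axis), 1 probe per gene, grouped by role. Each symbol is 1 array and open symbols mark signals not well above background, shown as measured; *Pjvk* and *Smpx* lie left of all their control arrays, *P2rx2* lies right of them, and the metabolic genes cluster around 0.

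The 10 genes of the hair cell apex and bundle base had the lowest median of the 6 roles, at -0.30 against the control mean. Of these, 7 genes were below all 3 control arrays, 2 above them and 1 within their range. Over all genes, 31.1% were below and 35% above by any amount. For *Ptprq*, *Triobp*, *Gpsm2* and *Rdx* the gap below the lowest control array was smaller than the control range. The second *Rdx* probe was above all control arrays. *Pjvk* encodes pejvakin, a protein of the gasdermin family that hair cells and auditory neurons need for normal function and that the array files list under the older name *Dfnb59*. Its signals were -0.98, -0.70, -0.56 and -2.17. The OHC-TRECK DT+ array was thus the lowest by a gap larger than the whole range of the control arrays (0.42), at 2.28-fold below the lowest of them and 2.68-fold below their mean. In whole cochleae, fewer cells of a type and less RNA per cell cannot be told apart, here and in all results that follow. *Smpx*, a small cytoskeletal protein of striated muscle linked to X-chromosomal deafness, had signals of -0.76, -0.73, -0.45 and -1.38. It was 1.54-fold below the lowest control array and 1.67-fold below the control mean, again by more than the control range (0.31). Of the 5 measured markers of skeletal muscle, 3 were well above background on all 4 arrays, with 2 below and 1 above all control arrays, and their part in the *Smpx* signal was not tested. *Homer2*, a scaffold protein found in stereocilia, followed with -1.15, -1.08, -1.19 and -1.67. This was 1.39-fold below the lowest control array, on control arrays that spanned only 0.11. A second *Homer2* probe (-5.72, -6.43, -5.78 and -5.95) was well above background on the OHC-TRECK DT- array alone, and with the mean over probes the difference from the control mean was -0.15 in place of -0.53. The OHC markers were lower on the same array, all 9 of them below all control arrays, with a median difference of -0.68 from the control mean. Spiral ganglion neuron markers, 5 of 7, and osteoblast markers, 5 of 6, were also below all control arrays, with medians of -0.21 and -0.45, against 31.1% of all genes. For the neuron markers the median ratio was only -0.05 against WT DT+, and it was already -0.29 between WT DT+ and WT DT-. For the osteoblast markers these ratios were -0.84 and 0.22. The part of these cell types in the signals of *Pjvk*, *Smpx* and *Homer2* was not tested.

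The stretches that reported these 3 genes are shown because the lower signals rest on them. Each is the first 30 of the 60 bases of the probe, as written in the array files and all in lower case, and the positions are those that the files give for the whole probe in mm9. They lie at chr2:76496554-76496611 on the + strand for *Pjvk*, chrX:154190108-154190167 on the + strand for *Smpx* and chr7:88756199-88756258 on the - strand for *Homer2*.
Pjvk: tcttcacgcagtcccttgctttgatatctg
Smpx: gacgtgtttttccaagggagaaaaaacaat
Homer2: ccgaaaacagagtgaaatcatacctcagct

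*Ptprq* and *Loxhd1* were dim, and their probes did not give a single answer. *Ptprq* encodes the receptor-type phosphatase of the connectors between stereocilia shafts, and its signals were -4.89, -3.51, -3.53 and -5.14, the last not well above background. The signal was at least 3.06-fold lower in OHC-TRECK DT+ than in OHC-TRECK DT- mice and at least 3.10-fold lower than in WT DT+ mice, but only at least 1.19-fold lower than in WT DT- mice. The WT DT- array itself was 2.61-fold below the WT DT+ array, so the control arrays spanned 1.39. Without the WT DT- array, *Ptprq* was 2-fold or more below each remaining array, and with normexp background correction all of its 2-fold calls were lost. A second probe again had WT DT- as the lowest control array (-5.45, -4.44, -4.33 and -5.73, the last not well above background). Against WT DT-, the markers shared by both hair cell types had a median ratio of 0.19 (log2) on the WT DT+ and on the OHC-TRECK DT- array, and the OHC markers 0.06 on each. The part of this in the *Ptprq* signal was not tested. *Loxhd1*, a protein under the membrane of stereocilia, had -3.36, -3.66, -3.56 and -3.56 on its brightest probe, which places OHC-TRECK DT+ inside the control range. Another *Loxhd1* probe had -4.31, -3.72, -3.79 and -5.70, the last not well above background and at least 2.84-fold below the control mean. Averaged over its measured probes, *Loxhd1* was 1.5-fold or more below each control array. The *Ptprq* probes lie at chr10:106954861-106954920 (taken) and chr10:107090544-107090603 (second), both on the - strand, and are shown because the low WT DT- signal was seen with both.
Ptprq, taken: aaaggaggacatcagccggtctgttttgtt
Ptprq, second: gtatcactggagttatccgacttagactat

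The other 5 genes of this role had no common direction. *Triobp*, which bundles the actin of stereocilia rootlets, had 1.23, 0.89, 0.72 and 0.58, so that the OHC-TRECK DT+ array was the lowest, 1.56-fold below WT DT-, while the control arrays alone spanned 0.51. A dim second *Triobp* probe had -4.92, -4.52, -4.71 and -4.84, inside the control range. *Gpsm2*, a regulator of G proteins that sets bundle orientation and stereocilia length, had -0.90, -0.73, -0.71 and -1.03, and was 1.19-fold below the control mean. Its gap of 0.13 below the lowest control array was smaller than its control range of 0.18. It is the only gene here with repeated spots, 10 per array, and their SD was 0.047 to 0.081. *Rdx*, radixin, which links actin to the membrane in stereocilia, had 1.97, 2.08, 1.98 and 1.94 on its brightest probe and was above all control arrays on the second (1.35, 1.48, 1.51 and 1.64), so no direction can be given. *Tprn*, taperin of the stereocilia base, was on the other side, with -0.40, -0.45, -0.55 and -0.20, or 1.15-fold above the highest control array. *Gipc3*, a PDZ protein of hair cells, was near the detection limit (-5.32, -6.03, -6.08 and -4.99) and well above background only on the first and last arrays. Its signal in OHC-TRECK DT+ mice was at least 2.14-fold higher than in OHC-TRECK DT- mice but 1.26-fold higher than in WT DT- mice.

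Actin and the non-muscle myosins, which shape cells throughout the cochlea, stayed close to their control level on their brightest probes. *Myh9* had 3.28, 3.36, 3.23 and 3.34, inside the control range. Its dim second probe had -5.40, -5.59, -5.55 and -5.09, the second value not well above background, which put OHC-TRECK DT+ above all control arrays and 0.39 over their mean. *Myh14* had 3.29, 3.23, 3.27 and 3.39 on its brightest probe, 1.08-fold above the highest control array. A dim second *Myh14* probe spanned 1.81 across the control arrays alone (-4.67, -5.19, -3.39 and -5.17), and with the mean over probes the sign of the *Myh14* difference turned. *Actg1*, cytoplasmic gamma actin, had 6.27, 6.02, 6.24 and 6.36, and its 5 probes differed from the control mean by 0.02 to 0.18. The *Actg1* values are uncertain because its near-identical paralog *Actb* may contribute to the signal.

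The 4 transcription regulators lay slightly above the control mean, between 0.11 and 0.23. *Eya1*, a coactivator and phosphatase required to form the ear, had 2.10, 2.53, 2.63 and 2.65. Its lowest value was that of untreated wild-type mice, and the OHC-TRECK DT+ array was only 1.02-fold above the highest control array, on a probe that holds a dinucleotide repeat of 34 bases. *Eya4*, its relative linked to late-onset hearing loss, had -0.62, -0.29, -0.42 and -0.26, with the same order of the wild-type arrays. *Pou3f4*, a POU factor of the otic mesenchyme, had -4.15, -4.06, -4.04 and -3.97. *Grhl2*, a factor that maintains epithelia, had -0.52, -0.27, -0.40 and -0.29, within the control range, and its second probe was well above background on 1 array only. For *Eya1*, *Eya4* and *Grhl2* the control arrays spanned more than the distance of OHC-TRECK DT+ from their mean.

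Among the secreted, fibrocyte and epithelial genes, 3 were above all control arrays and 3 were inside their range. *Tmprss3*, a transmembrane serine protease required by hair cells and found in the sensory epithelium, had 0.10, 0.15, 0.19 and 0.75, or 1.48-fold above the highest control array. Its second probe had -1.39, -1.41, -1.40 and -0.48, which is 1.89-fold above the control mean on control arrays that spanned 0.025. Both probes thus placed OHC-TRECK DT+ well outside a narrow control range. *Ildr1*, a protein of tricellular junctions between epithelial cells, had 0.04, -0.01, 0.00 and 0.51, or 1.38-fold above the highest of control arrays that spanned 0.048. *Hgf*, a growth factor of mesenchymal cells, had -3.69, -3.41, -3.62 and -3.02, or 1.31-fold above the highest control array, and it passed 1.5-fold against each remaining array when WT DT+ was left out. Macrophage markers were also higher on the OHC-TRECK DT+ array: all 8 were above all control arrays, 3 of them by 2-fold or more, with a median difference of 0.93 from the control mean, and all 8 were well above background. Of the stria vascularis markers 5 of 8 were above all control arrays and none below, with a median of 0.21 against the control mean. The 12 supporting cell markers had a median of 0.03, with 4 above and 3 below all control arrays, near the 35% and 31.1% of all genes. The part of these cell types in the signals of *Hgf*, *Tmprss3* and *Ildr1* was not tested.

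*Coch* encodes cochlin, an abundant matrix protein made by fibrocytes, and it hardly moved at 6.06, 5.95, 6.05 and 6.02. *Crym*, a thyroid hormone-binding protein, had 0.20, 0.00, 0.19 and 0.02, where both DT-treated arrays were the low ones. *Slc22a4*, a transporter of organic cations, had -0.98, -1.26, -1.31 and -1.29, where only the WT DT- array stood apart. The 8 fibrocyte markers had a median of 0.12 against the control mean, with 2 below and 4 above all control arrays.

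Of the channel, membrane and trafficking genes, *P2rx2* had the highest difference from the control mean among all 32 genes. It encodes an ATP-gated cation channel of the organ of Corti. Its signals were 2.57, 2.46, 2.50 and 3.40, so OHC-TRECK DT+ was 1.78-fold above the highest control array and 1.85-fold above the control mean, whereas the control arrays spanned 0.12. The second probe had -1.58, -1.62, -1.62 and -0.70, or 1.87-fold above the control mean. Both probes therefore gave nearly the same size, short of 2-fold. The macrophage markers (8 of 8) and stria vascularis markers (5 of 8) named above were higher on the same array, and their part in the *P2rx2* signal was not tested. *Cd164*, a sialomucin of cell adhesion, had 4.94, 4.92, 5.01 and 5.16, a difference of 0.20 from the control mean. *Wfs1*, wolframin of the endoplasmic reticulum, had 1.75, 1.77, 1.79 and 1.82, with 1.03-fold between the control mean and OHC-TRECK DT+. These 2 genes were above all control arrays by small amounts. *Tbc1d24*, a regulator of vesicle trafficking, was 1.12-fold below the lowest control array at -3.99, -4.00, -3.84 and -4.16. *Ccdc50*, an effector of epidermal growth factor signalling, was inside the control range at -1.24, -1.06, -1.15 and -1.21. Its other probes went both ways, with differences of 0.15 and -0.50 from the control mean.

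The probes that reported the higher signals are shown in the same form, with the first 30 bases and mm9 positions of the whole probe. Those of *P2rx2* lie at chr5:110768833-110768892 (taken) and chr5:110769525-110769584 (second), those of *Tmprss3* at chr17:31316484-31316543 (taken) and chr17:31320760-31320819 (second), all on the - strand, and that of *Ildr1* at chr16:36726704-36726763 on the + strand. The taken *Tmprss3* probe holds a dinucleotide repeat of 12 bases.
P2rx2, taken: tattttaagcccccctttagaagtcacaca
P2rx2, second: ctggattttgttaacgttcatgaacaaaaa
Tmprss3, taken: taggaatcagttgttttgtggctgtaacaa
Tmprss3, second: caagcctggagtctatacgcgaatcacctc
Ildr1: ggttccaacaatattgatattgtacaagat

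The 4 metabolic, mitochondrial and protective genes changed least. *Prps1*, which makes the phosphoribosyl precursor of nucleotides, had 1.89, 1.86, 1.87 and 1.89. *Lars2*, the mitochondrial leucyl-tRNA synthetase, had 0.45, 0.37, 0.45 and 0.40. *Serpinb6a*, an inhibitor of proteases, had 4.07, 4.10, 4.20 and 4.11. For these 3 genes OHC-TRECK DT+ differed from the control mean by between -0.02 and 0.02, less than the SD of repeated spots. *Msrb3*, a methionine sulfoxide reductase, had -1.86, -1.67, -1.79 and -1.66, where the DT-treated arrays of both genotypes were the higher ones.

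**Figure D2:**
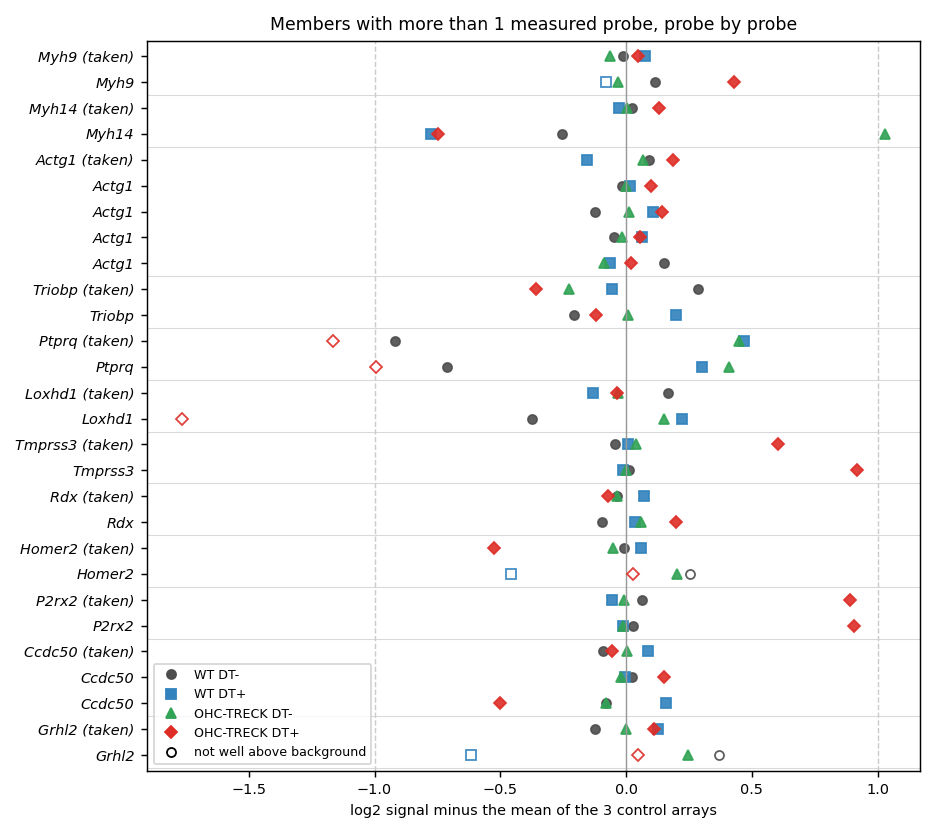
Every measured probe of the 12 genes with more than 1 such probe, as log2 difference of each array from the mean of the 3 control arrays (x axis); "taken" marks the probe used for the gene and open symbols are signals not well above background, shown as measured. The probes of *P2rx2* and *Tmprss3* agree, with OHC-TRECK DT+ right of all control arrays, while those of *Loxhd1*, *Rdx*, *Myh14* and *Ccdc50* differ in direction or size.

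Few of these genes differed by 2-fold between the control arrays. Between WT DT+ and WT DT- mice, *Ptprq* was higher (1.55% of all genes compared) and none was lower (1.12%). Between OHC-TRECK DT- and WT DT- mice, *Ptprq* was again the only gene higher (1.02%) and none was lower (2.44%). Both calls of *Ptprq* rest on the same WT DT- array (-4.89, against -3.51 in WT DT+ and -3.53 in OHC-TRECK DT-). Neither can therefore be assigned to the toxin or the transgene. In OHC-TRECK DT+ mice, *Pjvk* and *Ptprq* were lower than in OHC-TRECK DT- mice (1.44%) and than in WT DT+ mice (1.97%), and *Pjvk* was lower than in WT DT- mice (2.08%). In the other direction, *Gipc3* was higher than in OHC-TRECK DT- mice (2.71%), and no gene was higher than in WT DT+ (1.52%) or WT DT- mice (2.11%). At 1.5-fold, *Smpx* joined *Pjvk* and *Ptprq* on the lower side against OHC-TRECK DT- mice (3.75% of all genes compared), and *Homer2* joined these 3 against WT DT+ mice (4.64%). Against WT DT- mice the lower genes were *Pjvk*, *Smpx* and *Triobp* (6.03%). The higher genes at 1.5-fold were *Gipc3*, *Hgf* and *P2rx2* against OHC-TRECK DT- mice (6.43%), *P2rx2* and *Tmprss3* against WT DT+ mice (4.12%), and *Hgf*, *P2rx2* and *Tmprss3* against WT DT- mice (4.69%). *P2rx2* was thus the gene found on the higher side in each of the 3 comparisons. Of the controls, OHC-TRECK DT- differed from WT DT- at 1.5-fold by *Gipc3* on the lower side (4.66%) and *Ptprq* on the higher side (2.36%), and WT DT+ differed from WT DT- by *Ptprq* on the higher side (3.07%) and by no gene on the lower side (2.88%). These comparisons share arrays and are not independent of each other. The log2 ratio of the DT+ to the DT- array was set side by side in both genotypes. For *Pjvk* it was 0.27 in wild-type and -1.61 in OHC-TRECK mice, or 3.05-fold lower after the toxin in the latter. For *Smpx* it was 0.02 and -0.93, for *Homer2* 0.07 and -0.47, and for *P2rx2* -0.12 and 0.90. Among these 4 genes, the ratio in wild-type mice was thus farthest from 0 for *Pjvk*, at 1.21-fold. *Ptprq*, at 1.39 and at most -1.61, was the only gene with a 2-fold difference in wild-type mice.

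**Figure D3:**
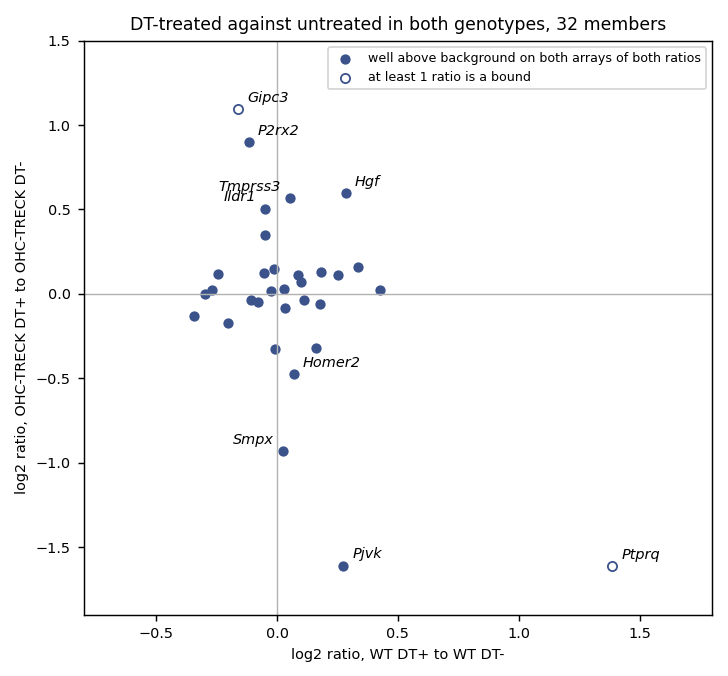
Log2 ratio of the DT-treated to the untreated array in wild-type mice (x axis) and in OHC-TRECK mice (y axis), each point 1 of the 32 genes, open where a signal not well above background makes a ratio a bound. Most points lie near the origin. *Pjvk* and *Smpx* lie low and *P2rx2* high on the y axis, at 0.27, 0.02 and -0.12 on the x axis. *Ptprq* lies far from 0 on both.

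Other deafness genes were called lower in a larger share. Of 82 further deafness genes of the hair bundle, transduction, synapse, ion transport and other classes, 76 were measured. Of these, 8 (10.5%) were 2-fold or more below each control array, against 1 of the 32 and 0.278% of all genes. They were *Strc* (the difference from the control mean was -3.02), *Myo15* (-2.28), *Gfi1* (-1.69), *Pou4f3* (-1.49), *Tomt* (-1.40), *Grxcr2* (-1.39), *Tmc1* (-1.36) and *Clrn2* (-1.07). *Pjvk*, at -1.42, lay inside the range of these genes. Of the 76 genes, 33 (43.4%) were below and 25 (32.9%) above all control arrays, against 31.1% and 35% of all genes. Their median difference was -0.030. The lists differ in makeup, since 11 of the other deafness genes and 4 of the 8 named are themselves on the hair cell marker lists, whereas 0 of the 32 genes are on any marker list. Most inner hair cell markers were also low, with 4 of 5 below all control arrays and a median of -0.44. *Otof* was at -0.59 and *Slc17a8* at -0.44, while *Tbx2* was above all control arrays at 0.52. The paper counted no change in inner hair cell number and found no significant difference in *Slc17a8* by qRT-PCR. Of the markers shared by both hair cell types, 7 of 9 were below all control arrays, with a median of -1.27. With 1 array per group the difference between the lists could not be tested. Both lists were also written with earlier results of these data known. The paper names all 8 genes, and *Pjvk*, among those lowered on these arrays, so the shares are not independent of those results.

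**Figure D4:**
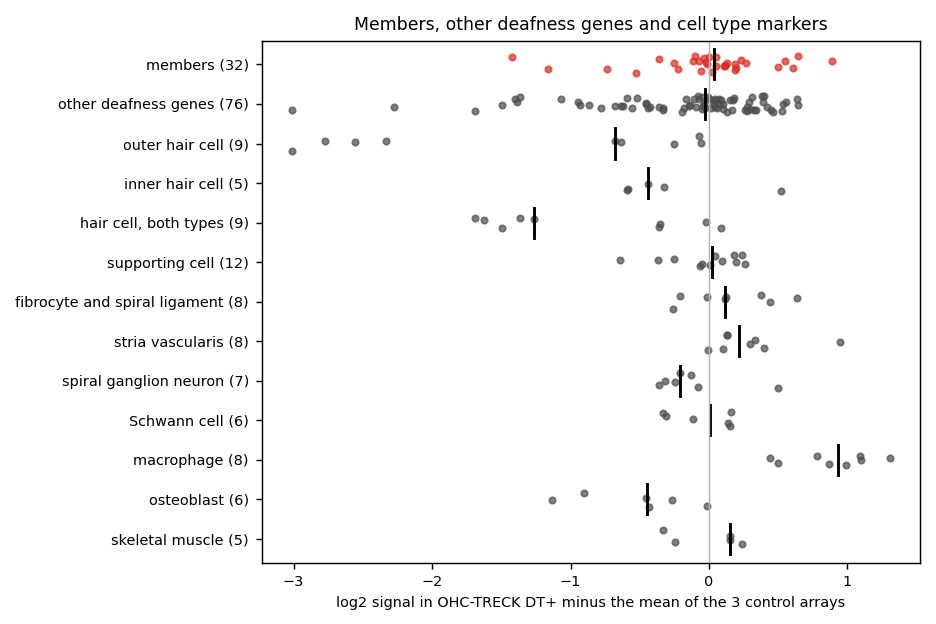
Difference of OHC-TRECK DT+ from the mean of the 3 control arrays (x axis, log2) for the 32 genes, the other deafness genes and the cell type marker lists; each point is 1 gene, black bars are medians, and numbers in brackets are genes measured. The 32 genes have a median near 0 with *Pjvk* farthest left, the OHC markers all lie left of 0, and the macrophage markers all lie right of it.

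The genes share no position, as they lie on 15 chromosomes with at most 5 on the same one, and *Smpx*, *Prps1* and *Pou3f4* lie on X. Promoters, taken as the 250 bases before and 50 after a RefSeq transcript start in GRCm38.p6, were at hand for 26 of the 32 genes (34 promoters). Their median GC content was 60.2%, and 52.7% over all 32851 promoters. Matches on either strand were counted for CAGCTG and CAGATG, E-box forms read by basic helix-loop-helix factors, for TAATTA, a homeodomain core, and for TATAAA, the TATA box. These were found in 3, 3, 1 and 4 of the 34 promoters (8.82%, 8.82%, 2.94% and 11.8%), and in 16.3%, 17.2%, 5.29% and 13.6% of all promoters. The promoters of *Pjvk* and *Smpx* are shown because these genes had the most negative differences among those measured on all 4 arrays, with matches in capitals. *Pjvk* (chr2:76650023-76650322, + strand, GC 43.7%) holds TATAAA on the opposite strand, read as TTTATA, and *Smpx* (chrX:157698723-157699022, + strand, GC 45.3%) holds TAATTA. The *Pjvk* match lies within the 50 bases after the transcript start and not before it. A match describes the letters of the window and is not a site that was shown to be used.
Pjvk promoter: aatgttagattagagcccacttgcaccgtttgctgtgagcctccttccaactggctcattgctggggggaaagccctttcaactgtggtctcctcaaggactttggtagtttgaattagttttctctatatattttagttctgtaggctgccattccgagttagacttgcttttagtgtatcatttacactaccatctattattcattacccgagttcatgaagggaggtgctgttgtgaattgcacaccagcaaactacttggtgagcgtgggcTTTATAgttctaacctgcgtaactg
Smpx promoter: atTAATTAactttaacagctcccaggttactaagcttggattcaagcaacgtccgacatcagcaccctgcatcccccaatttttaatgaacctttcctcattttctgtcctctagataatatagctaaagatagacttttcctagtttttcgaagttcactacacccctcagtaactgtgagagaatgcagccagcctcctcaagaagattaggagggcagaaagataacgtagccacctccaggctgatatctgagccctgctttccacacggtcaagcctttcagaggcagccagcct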

How the data were processed

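Cochlear RNA of 4 groups was measured with 1 pooled Agilent array each (Cy3, probe positions in mm9). The authors deposited the scanner output of Agilent Feature Extraction 11.5.1.1, in which the intensity of each of 43020 non-control spots is linear, background-subtracted and not scaled between arrays, and a table of that intensity scaled by a constant for each array. Here outlier spots (149 to 228 per array) were removed, spots of a probe averaged and flags taken where they held for more than 0.5 of the spots. Signals were scaled to the 75th percentile of the array (2728 to 3162 intensity units) and brought to log2. No spot was saturated.

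Each gene was represented by the probe with the highest mean signal that was detected (well above background) on 1 or more arrays. An undetected signal under the array's lowest detected one was set to the latter, and folds with an undetected signal are written as at least N-fold. Probe names were updated through RefSeq (29803 by symbol, 1635 by accession, 295 by synonym, 7696 kept), and *Pjvk* was matched by accession. The named genes are all 32 genes, cell markers and the other deafness genes called at 2-fold. The genes, lists and roles were chosen with earlier results of these data known. The steps were run on simulated data with large changes in bright probes and noise near spot error. That run checks the code and not how reliable the calls are. Python 3.11.15, numpy 2.4.6, pandas 2.3.3, matplotlib 3.10.9, R 4.3.3 and limma 3.58.1 (normexp, offset 50) were used. Alternatives changed the floor, filter, background correction, scaling, source of values, probe rule, fold and control arrays.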

Additional observations from a re-analysis of the deposited data

Results flagged for a closer look

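The log2 ratio of the DT-treated to the untreated array differed in direction between the genotypes for 2 genes, by at least 1.2-fold each way. For *Pjvk* it was -1.61 in OHC-TRECK and 0.27 in wild-type mice, a difference of -1.88. For *Ptprq* it was -1.61 in OHC-TRECK mice, as a bound, and 1.39 in wild-type mice, a difference of -3.00, and the probe was dim on all 4 arrays. By their median, the markers shared by both hair cell types were also lower after the toxin in OHC-TRECK mice (-1.05) and higher in wild-type mice (0.19). Each ratio rests on 1 array per group, so these differences were not tested.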

How the results depend on the processing

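Of the 32 genes, 26 kept the sign of their difference from the control mean under the 11 alternatives that give a ratio for each gene (*Ptprq* and *Gipc3* have none where all 4 arrays are required), and the 6 others were *Coch*, *Lars2*, *Loxhd1*, *Myh14*, *Rdx* and *Serpinb6a*, with *Myh14* turning from 0.13 to -0.31 and *Rdx* from -0.07 to 0.06 with the mean over probes. *Pjvk* was 2-fold or more below each control array in every setting run. Requiring probes well above background on all 4 arrays, which leaves 30 genes, and normexp correction each gave 1 gene lower than in OHC-TRECK DT-, 0 higher than in OHC-TRECK DT-, 1 lower than in WT DT+, 0 higher in OHC-TRECK DT- than in WT DT- and 0 higher in WT DT+ than in WT DT-. Without the floor, 1 gene (*Gipc3*) was higher than in WT DT+. With the mean over probes, 2 genes (*P2rx2* and *Tmprss3*) were 1.5-fold above each control array. With 1.5-fold in place of 2-fold, 2 were below and 1 above each control array, 3 were higher than in OHC-TRECK DT-, 4 lower and 2 higher than in WT DT+, 3 lower and 3 higher than in WT DT-, and 1 lower in OHC-TRECK DT- than in WT DT-. Leaving out each control array in turn gave 1 to 2 genes 2-fold lower than each (*Ptprq* added without WT DT-) and 1 to 2 genes 1.5-fold higher than each (*Hgf* added without WT DT+, *Tmprss3* without OHC-TRECK DT-). Without a filter on dim probes the median of all genes moved to 0.11, through probes held at the floor, and the median of the 32 genes stayed at 0.033. No paired analysis was possible because each group has 1 array. *Ptprq* and *Gipc3* were not well above background on all 4 arrays, so their folds against such arrays are bounds.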
